A study of Mus musculus with 3 samples.

Results

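The miR-17-92 and miR-106b-25 clusters are groups of miRNA hairpins that are each cut from a shared primary transcript. Their 9 mature guide strands (miR-17-5p, miR-18a-5p, miR-19a-3p, miR-20a-5p, miR-19b-3p and miR-92a-3p from miR-17-92, and miR-106b-5p, miR-93-5p and miR-25-3p from miR-106b-25) were chosen by locus and not by level, though with earlier results of these data known. They are 9 of the 689 miRNA entries that had reads in these data. All 9 of 9 were matched in the RefSeq miRNA table for GRCm38.p6. The libraries held small RNAs of 18 to 30 nt from the liver of C57BL/6 mice, an inbred strain, taken 4 weeks after the mice received scAAV9, an adeno-associated virus vector with a self-complementary genome. It carried a Tough Decoy against miR-122 (TuD-miR-122), a Tough Decoy against let-7 (TuD-let-7) or no decoy (mock); a Tough Decoy is a hairpin RNA made in the cell to hold its target miRNA at exposed sites. All 3 groups received the vector. Each has 1 library, so differences between libraries have no replicate check, no test between conditions was made, and intervals (95%) cover counting error only. The promoter of the decoys, the age of the mice and the number of animals behind a library are not stated in the labels.

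The miR-17-92 transcript is known for promoting proliferation and survival, originally from B-cell lymphomas, and miR-106b-25 is a paralog that lies within the gene of Mcm7, a subunit of the helicase that unwinds DNA at replication. A miRNA recognises its targets mainly through its seed, bases 2 to 8, and the members fall into 4 seed families: miR-17 (which restrains cell cycle inhibitors and TGF-beta signalling), miR-18, miR-19 (known for promoting cell survival) and miR-92 (which includes miR-25 and represses, among others, the pro-apoptotic Bim). Both transcripts are cut first into hairpins by Drosha and then into duplexes by Dicer; one strand, the guide, is loaded into Argonaute and the other, the passenger, is mostly degraded. After loading, 3′ ends can be shortened or receive added A or U bases.

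On GRCm38, miR-17-92 held 6 hairpins in 836 nt of chr14:115043671-115044506 (plus strand), all overlapping an exon of at least 1 annotated transcript of the noncoding host gene Mir17hg. The miR-106b-25 cluster held 3 hairpins in 498 nt of chr5:138165321-138165818 (minus strand) inside Mcm7, with Mir106b in an intron and Mir93 and Mir25 overlapping an exon of at least 1 annotated transcript. A further paralog, miR-106a-363, held 6 hairpins in 875 nt of chrX:52741693-52742567 (minus strand) and carries second copies of miR-19b-3p and miR-92a-3p. The mature sequences (RefSeq, GRCm38.p6) are shown because the families, the reads they could share and the end forms described further on can be read from them; capitals mark the seed, and members are grouped by seed in the order miR-17, miR-18, miR-19 and miR-92.
miR-17-5p: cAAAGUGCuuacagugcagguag
miR-20a-5p: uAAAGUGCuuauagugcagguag
miR-106b-5p: uAAAGUGCugacagugcagau
miR-93-5p: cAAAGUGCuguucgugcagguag
miR-18a-5p: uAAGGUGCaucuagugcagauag
miR-19a-3p: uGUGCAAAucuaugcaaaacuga
miR-19b-3p: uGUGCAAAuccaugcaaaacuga
miR-92a-3p: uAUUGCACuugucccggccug
miR-25-3p: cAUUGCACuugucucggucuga

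Positions are counted from 1 at the mature 5′ end. miR-19a-3p and miR-19b-3p differ by the single substitution U11C, given with the base of the first-named miRNA before the position and that of the second after it. miR-17-5p and miR-20a-5p differ by C1U and C12U, and miR-92a-3p and miR-25-3p by U1C, C14U and C18U over 21 nt. Of all reads assigned to a member, 2, 2 and 3 in TuD-miR-122, TuD-let-7 and mock could also have come from another entry and were left out.

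The libraries held 3681585 (TuD-miR-122), 2066892 (TuD-let-7) and 3450317 (mock) reads, of which 70.8%, 72.3% and 77.1% were assigned to miRNAs. Levels are RPM (each read count divided by a library total and multiplied by 1000000), with the total taken as the miRNA reads left after miR-122 and let-7 are taken out (non-target reads), which numbered 1408843, 470533 and 1331970; a floor of 3 reads is 2.13, 6.38 and 2.25 RPM in the same order. The decoy targets checked the labels: miR-122-5p stood at 0.801 of mock in TuD-miR-122 with 51.2% of its reads tailed, against 23.0% in mock, and the let-7 guides stood at 0.406 of mock in TuD-let-7. In TuD-let-7, miR-122-5p took 65.4% of all miRNA reads, against 38.3% in mock, so scaling to all reads multiplies every TuD-let-7 ratio to mock by 0.590. Of the marker lists for cell types, none had a member at 0 reads: the 5 hepatocyte miRNAs, a sum made up mainly of the target miR-122-5p, stood at 0.805 (TuD-miR-122) and 2.49 (TuD-let-7) of mock, the 4 erythroid ones to 1.40 and 0.897, the 8 immune ones to 0.9502 and 0.789, the 2 endothelial ones to 1.21 and 0.927 and the 5 stromal ones to 1.17 and 1.15. Of the other hepatocyte miRNAs, miR-194-5p had 58389, 91600 and 67745.5 RPM in TuD-miR-122, TuD-let-7 and mock, and miR-192-5p 36420, 46783 and 45667. In the same order miR-148a-3p had 8802, 9345 and 10793, and miR-802-5p 593, 208 and 1169.7. The stromal, endothelial and immune sums also joined miRNAs that went different ways. Of the stromal ones, miR-143-3p had 18236, 18645 and 14798 RPM, miR-145-5p 2122, 3201 and 2562, and miR-199a-3p 3273, 1583 and 2747. The endothelial miR-126-3p had 21523, 18167 and 16843, and miR-126-5p 8143, 4597 and 7720. Of the immune ones, miR-142-5p had 1601, 890 and 1244, and miR-142-3p 6762, 5651 and 7496. The 4 skeletal muscle miRNAs summed to 1015, 234 and 10870 RPM in TuD-miR-122, TuD-let-7 and mock, so the mock library that serves as control below stands apart in these. In bulk liver, fewer cells of a type and less RNA per cell cannot be told apart, and the part of these lists in the results below was not tested.

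Within miR-17-92, miR-19b-3p made up most of the output. It had 11727 reads (8324 RPM) in TuD-miR-122, 9224 reads (19603 RPM) in TuD-let-7 and 15413 reads (11572 RPM) in mock, or 64.4%, 75.7% and 64.4% of the cluster's guide reads, and ranked 25th, 13th and 19th among the miRNAs outside the decoy targets. miR-92a-3p, from the last hairpin, came next in the TuD-miR-122 and mock libraries, with 3207, 1164 and 4743 reads (2276, 2474 and 3561 RPM). miR-19a-3p had 2259, 1368 and 2554 reads (1603, 2907 and 1917 RPM) and stood above miR-92a-3p in the TuD-let-7 library alone. All reads of miR-19b-3p and miR-92a-3p were counted here, although both have a second copy in miR-106a-363. On that count the 2 miR-19 family members carried the larger part of the cluster in every library.

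The miR-17 family members of the same transcript were far less abundant. miR-20a-5p had 705, 252 and 839 reads (500.4, 536 and 629.9 RPM). miR-17-5p, from the first hairpin, had 170, 117 and 212 reads (121, 249 and 159 RPM), under 1% of the cluster in each library. miR-18a-5p, from the second hairpin, had 149, 55 and 158 reads (106, 117 and 119 RPM), and its counting intervals overlapped those of miR-17-5p in TuD-miR-122 but not in TuD-let-7.

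In miR-106b-25 the middle hairpin led. miR-93-5p had 3719, 1427 and 4428 reads (2640, 3033 and 3324 RPM), or 61.6%, 69.7% and 72.2% of that cluster, and exceeded every miR-17 family member of miR-17-92 in each library. miR-25-3p had 2096, 536 and 1532 reads (1488, 1139 and 1150.2 RPM), and miR-106b-5p had 218, 83 and 172 reads (155, 176 and 129 RPM). Levels of different miRNAs were set side by side without correction for ligation or amplification preferences, which the files do not show.

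**Figure D1:**
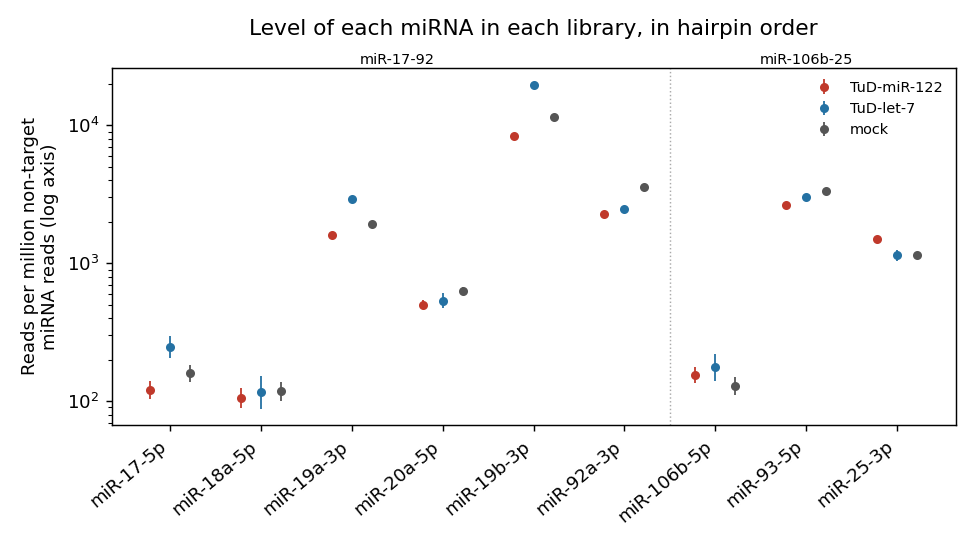
Level of each guide strand in RPM of non-target miRNA reads (log axis) in the TuD-miR-122, TuD-let-7 and mock libraries, in the order of the hairpins on each transcript; points are single libraries and bars 95% counting intervals. The order of the members was much alike in the 3 libraries, with miR-19b-3p highest (8324, 19603 and 11572 RPM). The points of TuD-let-7 stand above the others for miR-19a-3p, miR-19b-3p and miR-17-5p. That of miR-106b-5p does too (176 RPM, against 155 in TuD-miR-122 and 129 in mock), with overlapping intervals.

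By seed family, the miR-19 members summed to 13986, 10592 and 17967 reads, the miR-92 members to 5303, 1700 and 6275, the miR-17 members to 4812, 1879 and 5651 and miR-18a-5p alone to 149, 55 and 158. Family members from elsewhere added few reads except in the miR-92 family. There miR-32-5p, transcribed from chromosome 4, had 1568, 332 and 1374 reads, close to those of miR-25-3p, whereas miR-92b-3p had 6, 3 and 11. The members of the miR-106a-363 paralog that can be told apart had few reads: miR-20b-5p had 32, 9 and 45 reads, miR-106a-5p 2, 1 and 4, miR-18b-5p 3, 1 and 1, and miR-363-3p 2, 3 and 5. Both passenger strands specific to that locus (miR-19b-2-5p and miR-92a-2-5p) had 0 reads in each library, which allows up to 2.13, 6.38 and 2.25 RPM. Most guide reads of miR-19b-3p cannot be placed, since the copies share 23 nt; among longer reads, 58, 48 and 88 matched only the X-linked copy and 2, 0 and 2 only the copy in miR-17-92, but the base that tells them apart is a T that can also be an added base. The copies of miR-92a-3p share 21 nt, and 1941, 676 and 2567 reads matched only the miR-17-92 copy against 76, 25 and 111 only the X-linked one, where the base that differs can likewise be an added one.

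Passenger strands varied more between hairpins than between libraries. Over the 3 libraries, miR-106b-3p made up 29.2% of the reads from its hairpin and miR-17-3p 17.9%, so these hairpins gave 2.43 and 4.58 guide reads per passenger read. At the other end, miR-19b-3p had 932 guide reads for each read of miR-19b-1-5p, miR-93-5p 342, miR-25-3p 208 and miR-92a-3p 179. The 5p arm of miR-19a has no mature entry in the table, and 1, 0 and 6 reads fell in that part of the hairpin. The passengers summed to 236, 84 and 191 reads, a ratio to mock of 1.17 (0.961 to 1.42) in TuD-miR-122 and 1.24 (0.951 to 1.62) in TuD-let-7; both intervals include 1. For TuD-miR-122 this interval lies above that of the 9 guides together, which stood at 0.763 of mock (0.750 to 0.776). These sums weigh the hairpins differently: in TuD-miR-122, miR-106b-3p gave 103 of 236 passenger reads and miR-19b-3p 11727 of 24250 guide reads. The gap therefore does not compare the strands of a given hairpin.

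In the TuD-miR-122 library the miR-17-92 guides summed to 0.720 of mock (0.706 to 0.734) and the miR-106b-25 guides to 0.930 (0.898 to 0.964). No member had its interval wholly beyond a 1.5-fold difference (0 of 9 higher and 0 of 9 lower), where 15.9% of 227 non-target miRNAs (100 reads or more over both libraries) were higher and 6.61% lower by that rule. The lowest ratio was that of miR-92a-3p at 0.639 (0.611 to 0.669), whose interval crosses the 1.5-fold limit, and the highest that of miR-25-3p at 1.29 (1.21 to 1.38), although these share a seed. miR-19b-3p stood at 0.719 (0.702 to 0.737), miR-93-5p at 0.794 (0.760 to 0.830) and miR-19a-3p at 0.836 (0.790 to 0.885). The median ratio of the 9 members was 0.794, beside 0.997 over all non-target miRNAs. miR-93-5p and miR-25-3p, neighbours on the Mcm7 transcript, stood at 177 reads of miR-93-5p per 100 of miR-25-3p in TuD-miR-122 and 289 in mock, a quotient of 0.614 (0.567 to 0.665) that no scaling of the libraries can change.

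In the TuD-let-7 library the ratios of the miR-17-92 members to mock differed widely, with no order along the transcript. miR-19b-3p was higher, at 1.69 of mock (1.65 to 1.74), miR-19a-3p stood at 1.52 (1.42 to 1.62) and miR-17-5p at 1.56 (1.24 to 1.97), while miR-92a-3p stood at 0.695 (0.651 to 0.741), miR-20a-5p at 0.850 (0.736 to 0.980) and miR-18a-5p at 0.985 (0.711 to 1.35). Only miR-19b-3p passed the 1.5-fold rule upward (1 of 9, beside 8.76% of 194 non-target miRNAs) and none passed it downward (0 of 9, beside 10.3%). Scaled to all reads, miR-19b-3p stood at 0.999 and did not pass, while 4 members passed downward: miR-92a-3p at 0.410, miR-20a-5p at 0.501, miR-93-5p at 0.538 and miR-25-3p at 0.584. That scaling lowers every miRNA's ratio by the same factor, 0.590. The share of all non-target miRNAs passing under it is not given, so this count does not set the members apart. The cluster summed to 1.44 of mock (1.41 to 1.47), of which miR-19b-3p was the larger part, and to 0.850 when scaled to all reads. The miR-106b-25 guides summed to 0.945 (0.898 to 0.993), and to 0.557 when scaled to all reads, with miR-93-5p at 0.912 (0.859 to 0.969), miR-25-3p at 0.990 (0.896 to 1.09) and miR-106b-5p at 1.37 (1.04 to 1.79). The median ratio of the 9 members was 0.990, beside 0.985 over all non-target miRNAs. At 2-fold no member passed against mock: 0 of 9 in TuD-miR-122 (beside 14.1% higher and 4.85% lower) and 0 of 9 in TuD-let-7 (beside 4.12% in each direction).

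Set directly against TuD-let-7, TuD-miR-122 had 3 of 9 members lower by 1.5-fold (beside 10.3% of 214 non-target miRNAs) and 0 of 9 higher (beside 23.4%). These were miR-19b-3p at 0.425 (0.413 to 0.436), miR-17-5p at 0.485 (0.381 to 0.619) and miR-19a-3p at 0.552 (0.515 to 0.590), and miR-19b-3p alone was lower by 2-fold (1 of 9, beside 1.87%, with 0 of 9 higher, beside 17.3%). miR-92a-3p stood at 0.920 and miR-93-5p at 0.870 of TuD-let-7. Which members differed more between the decoy libraries depends on the scaling. Scaled to all reads, miR-19b-3p, miR-17-5p and miR-19a-3p stood at 0.714, 0.816 and 0.927, whereas miR-92a-3p stood at 1.55, miR-93-5p at 1.46 and miR-25-3p at 2.20.

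**Figure D2:**
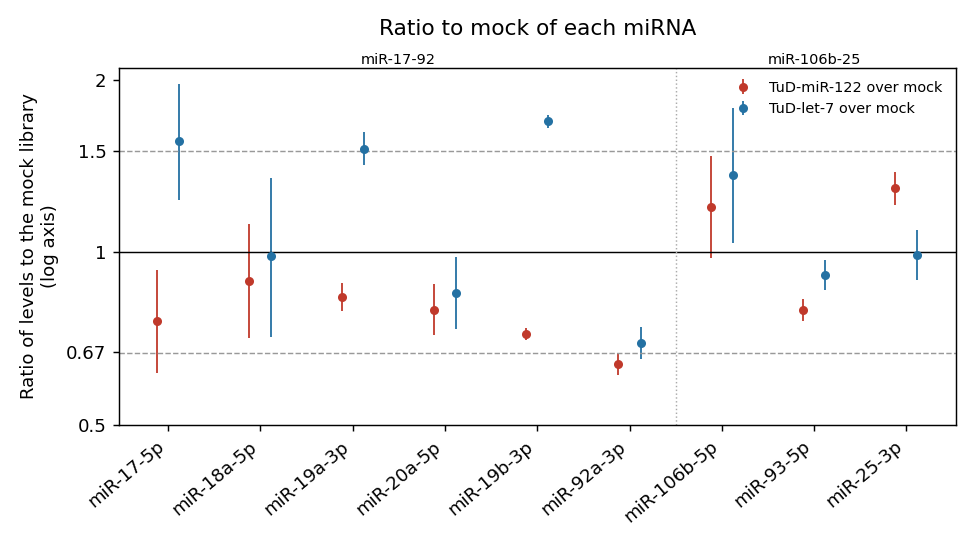
Ratio of each guide strand's level to mock (log axis) in TuD-miR-122 and TuD-let-7, with 95% counting intervals; the solid line is equality and the dashed lines mark 1.5-fold. miR-19a-3p, miR-19b-3p and miR-17-5p lie above equality in TuD-let-7 and below it in TuD-miR-122, and miR-92a-3p lies below it in both (0.639 and 0.695). Both series share the mock library.

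Ratios between members within a library do not depend on the scaling. miR-92a-3p had 27.3, 12.6 and 30.8 reads per 100 reads of miR-19b-3p in TuD-miR-122, TuD-let-7 and mock, and the TuD-let-7 value was 0.410 of that in mock (0.382 to 0.440). miR-20a-5p had 6.01, 2.73 and 5.44 reads per 100 of miR-19b-3p, and the TuD-let-7 value was 0.502 of mock (0.433 to 0.580). miR-17-5p, which shares its seed with miR-20a-5p, had 24.1, 46.4 and 25.3 reads per 100 of miR-20a-5p, a TuD-let-7 value 1.84 times that of mock (1.39 to 2.42). For these 3 pairs the quotients of TuD-miR-122 to mock were nearer to 1, at 0.889, 1.10 and 0.954. For the pairs with miR-25-3p the TuD-miR-122 quotient was instead the one further from 1. miR-93-5p per miR-25-3p stood at 0.614 of mock in TuD-miR-122 and at 0.921 (0.820 to 1.04) in TuD-let-7. In the same order miR-92a-3p per miR-25-3p, a pair from different transcripts, stood at 0.494 (0.456 to 0.536) and 0.701 (0.623 to 0.791). miR-19a-3p per miR-19b-3p stood at 1.16 (1.09 to 1.24) and 0.895 (0.833 to 0.961). Over the first 21 bases miR-19b-3p and miR-20a-5p both have 38.1% G and C, and miR-92a-3p has 57.1%. Across the non-target miRNAs, Spearman's rho of G and C content with the log2 ratio to mock was -0.11 in TuD-miR-122 (n = 227) and 0.25 in TuD-let-7 (n = 194), given as a description; the part of base composition in these differences was not tested.

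Summed by seed family, the families differed as well. In TuD-let-7 the miR-19 members summed to 1.67 of mock (1.63 to 1.71), the miR-17 members to 0.941 (0.893 to 0.992) and the miR-92 members to 0.767 (0.726 to 0.809), with miR-32-5p at 0.684 (0.605 to 0.772). In TuD-miR-122 the same families stood at 0.736 (0.720 to 0.752), 0.805 (0.775 to 0.837) and 0.799 (0.770 to 0.829), and miR-32-5p at 1.08 (1.003 to 1.16). The TuD-let-7 values of the miR-19 members depend on the scaling: on all reads miR-19a-3p stood at 0.894 (0.837 to 0.955) and miR-19b-3p at 0.999 (0.973 to 1.03), and on all miRNA reads they stood at 0.954 (0.893 to 1.02) and 1.07 (1.04 to 1.09). The 9 members together stood at 0.763 of mock in TuD-miR-122 and at 1.34 in TuD-let-7. The nearest pair of log2 ratios to that sum was sought among 73 non-target miRNAs with at least 1000 mock reads. It belonged to miR-203-3p (0.735 of mock in TuD-miR-122, 1.46 of mock in TuD-let-7). Next came miR-145a-5p, miR-378a-3p, miR-194-5p (a hepatocyte and intestinal miRNA) and miR-103-3p, the last at 0.745 and 1.52.

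The 3′ ends differed between members of one transcript and of one family. A read counted as tailed when up to 5 of its last bases did not match the precursor. An added base equal to the next base of the precursor counts as matching, so the tails that can be seen differ between members. miR-20a-5p was tailed in 36.2%, 54.4% and 49.5% of its reads in TuD-miR-122, TuD-let-7 and mock, and miR-92a-3p in 34.5%, 38.4% and 41.0%. miR-19b-3p was tailed in 18.0%, 12.8% and 13.2%. Tails made only of A were common on miR-20a-5p (23.0%, 29.8% and 33.0% of reads) and miR-92a-3p (14.6%, 16.9% and 19.3%), and rare on miR-19b-3p (0.836%, 0.770% and 0.720%), so members cut from the same transcript carried different ends. Members with the same seed differed too: tails made only of A were on 3.29%, 3.54% and 3.98% of the reads of miR-25-3p and on 3.67%, 2.41% and 4.07% of those of miR-106b-5p. The commonest inserts show this; capitals mark bases that do not match the precursor, and inserts are written as DNA as in the files.
miR-20a-5p, full length: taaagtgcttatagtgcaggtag
miR-20a-5p, with added A: taaagtgcttatagtgcaggtagA
miR-92a-3p, most frequent: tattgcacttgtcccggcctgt
miR-92a-3p, with added A: tattgcacttgtcccggcctgtA
miR-19b-3p, full length: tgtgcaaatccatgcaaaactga
miR-19b-3p, ending in T: tgtgcaaatccatgcaaaactgT

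The form of miR-20a-5p with 1 added A made up 18.9%, 25.8% and 26.3% of its reads, against 19.1%, 19.8% and 18.95% for the full-length form. For miR-92a-3p the form with 1 added A made up 8.76%, 10.7% and 12.0%. The full-length form of miR-19b-3p made up 72.7%, 78.9% and 77.7%, and the form ending in T 8.49%, 8.34% and 8.30%. The A-tailed forms of miR-20a-5p and miR-92a-3p were thus least frequent in TuD-miR-122, while the T-ended form of miR-19b-3p hardly varied.

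Between TuD-miR-122 and mock, 3 of 9 members had a tailed share lower by at least 5 percentage points with intervals apart, namely miR-20a-5p, miR-92a-3p and miR-93-5p (28.2% in TuD-miR-122 and 33.7% in mock), beside 7.27% of 165 non-target miRNAs. In the other direction 1 of 9 passed, miR-19a-3p (14.5% in TuD-miR-122 and 9.32% in mock), beside 1.21%. The median difference in tailed share was -5.16 points over the members and -1.14 over all miRNAs tested. Between TuD-let-7 and mock none of the 7 members with enough reads (all but miR-18a-5p and miR-106b-5p) passed in tailed share (0 of 7 higher, beside 21.1% of 133 non-target miRNAs, and 0 of 7 lower, beside 3.01%). Between TuD-miR-122 and TuD-let-7, 2 of 7 were higher (miR-19a-3p and miR-19b-3p, beside 1.52% of 132) and 2 of 7 lower (miR-20a-5p and miR-93-5p, beside 25.8%).

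Trimmed reads, those whose matching part was under 21 nt, were few for most members. In TuD-let-7, 2 of 7 members passed the same rule upward, beside 32.3% of 133 non-target miRNAs: miR-93-5p was trimmed in 15.6% of its reads there and in 3.55% in mock, and miR-20a-5p in 13.5% in TuD-let-7 and 3.10% in mock. No member passed downward (0 of 7, beside 0%). In TuD-miR-122 no member passed in either direction (0 of 9 each, beside 0.606% higher and 4.24% lower). Against TuD-let-7, it had 2 of 7 members lower in trimmed share (miR-20a-5p and miR-93-5p, beside 32.6% of 132) and 0 of 7 higher (beside 1.52%). miR-18a-5p was trimmed in 36.9%, 45.5% and 34.8% of reads and miR-106b-5p in 24.8%, 32.5% and 26.2%; the mature form of miR-106b-5p is itself 21 nt long.

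The rise of miR-19a-3p in tailed share and those of miR-93-5p and miR-20a-5p in trimmed share lay mostly in ends that matched the precursor again after 1 differing base. In these reads a single substitution near the 3′ end makes everything after it count as a tail and the part before it as trimmed. The insert below shows it; capitals mark the bases counted as a tail.
miR-19b-3p, differing at position 19: tgtgcaaatccatgcaaaCCTGA

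This insert had 411, 12 and 217 reads in TuD-miR-122, TuD-let-7 and mock, or 3.50%, 0.130% and 1.41% of miR-19b-3p. Its change is A19C, with the precursor's base first and the read's base last, and miR-19a-3p carried the same change in 76, 0 and 24 reads of that kind. In TuD-let-7 the most frequent such change was G19T, in 116 reads of miR-93-5p (8.13%) and 22 of miR-20a-5p (8.73%), against 10 reads (0.226%) and 3 reads (0.358%) in mock and 1 read of each (0.0269% and 0.142%) in TuD-miR-122. miR-17-5p, with the same bases there, showed G19T in 0, 7 and 1 reads, and miR-106b-5p in 0, 6 and 0.

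With such ends (at least 2 matching bases after the differing one) counted as mismatches, miR-19a-3p was tailed in 9.56%, 7.75% and 7.24% of reads and no member was higher in tailed share in TuD-miR-122 (0 of 9, beside 0.606%). miR-93-5p was then trimmed in 1.69%, 5.61% and 2.30% and miR-20a-5p in 1.28%, 2.78% and 2.15%, and no member passed in trimmed share in TuD-let-7 (0 of 7 each way, beside 12.8% higher and 1.5% lower). miR-93-5p was tailed in 27.4%, 26.5% and 32.4% on this count, and became the 1 of 7 members lower in TuD-let-7 (beside 5.26%), with 0 of 7 higher (beside 6.77%). The lower tailed shares in TuD-miR-122 stayed at 3 of 9 members (beside 7.88%), and trimmed shares at 0 of 9 (beside 0% higher and 3.03% lower): miR-20a-5p at 35.5% in TuD-miR-122, against 48.5% in mock, miR-92a-3p at 33.1% in TuD-miR-122, against 39.996% in mock, and miR-93-5p as given above.

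**Figure D3:**
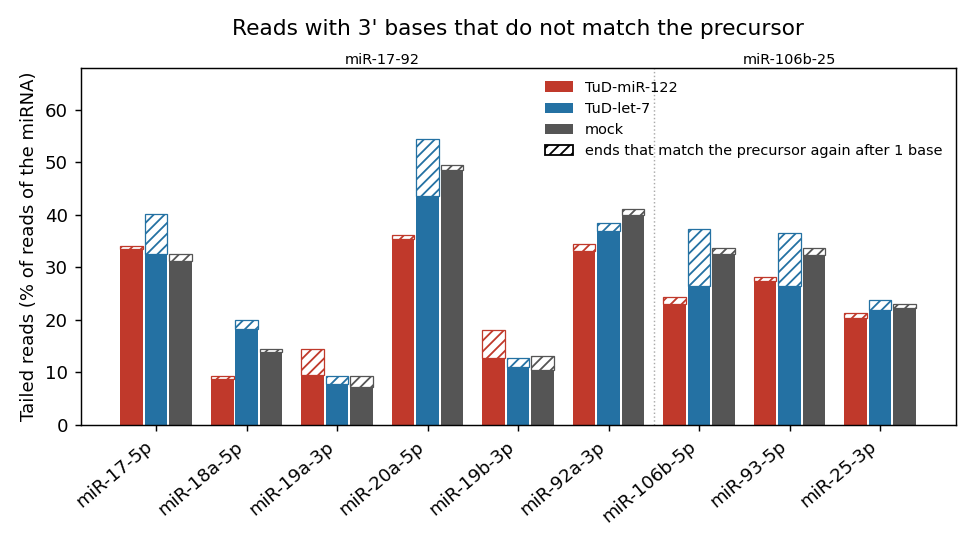
Share of each guide's reads with 3′ bases that do not match the precursor (percent of the miRNA's reads) in TuD-miR-122, TuD-let-7 and mock; the hatched top of each bar is the part whose end matches the precursor again after 1 base. The hatched part is 10.1% for miR-93-5p and 10.7% for miR-20a-5p in TuD-let-7, against 1.29% and 0.954% in mock, and 4.91% for miR-19a-3p in TuD-miR-122, against 2.08% in mock.

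Other changes whose frequency differed between libraries appeared inside the miRNAs. Reads with 1 mismatch added 10.01%, 28.8% and 9.73% to the exact reads of both clusters in TuD-miR-122, TuD-let-7 and mock, close to the 13.3%, 30.0% and 13.0% over all non-target miRNAs. In TuD-let-7, G11T was carried by 12.4% of the reads of miR-92a-3p and by 12.4% of those of miR-25-3p, against 0.0786% and 0.122% in mock. miR-93-5p carried G10T in 7.12% of its reads in TuD-let-7, against 0.525% in mock, and A2C in 4.62%, where mock had 0 reads. G4T stood at 4.74% for miR-19a-3p and 4.48% for miR-19b-3p in TuD-let-7, against 1.09% and 1.28% in mock. In TuD-miR-122, G14T recurred across members: 3.26% for miR-93-5p, 3.36% for miR-20a-5p and 2.02% for miR-19b-3p, against 0.315%, 0.227% and 0.0874% in mock. Some members had a more frequent change there, such as A19C in miR-19b-3p (3.27%, against 1.27% in mock) and C12T in miR-106b-5p (7.22%, against 5.13% in mock). Members of different families thus shared the position and the bases of a change within a library, and what produced the changes was not tested.

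**Figure D4:**
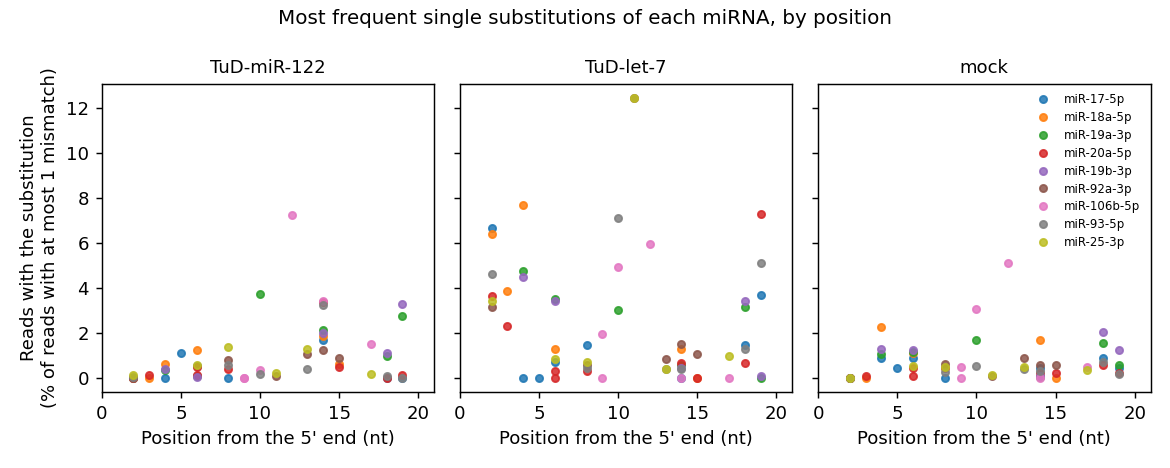
Share of reads carrying each member's most frequent single substitutions, by position from the 5′ end, in TuD-miR-122, TuD-let-7 and mock; each point is 1 substitution of 1 guide, as a percent of its reads with at most 1 mismatch. In TuD-let-7 points reach 12.4% at position 11 (miR-92a-3p and miR-25-3p), where mock has 0.0786% and 0.122%, and several members stand together at positions 2 and 19.

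The levels above count exact reads alone, so reads with an internal change are missing from them. With 1 mismatch allowed, the TuD-let-7 ratio of miR-92a-3p to mock was 0.754 and that of miR-25-3p 1.06, while those of miR-19b-3p and miR-19a-3p were 1.70 and 1.56. miR-92a-3p then had 27.2, 13.2 and 29.6 reads per 100 of miR-19b-3p, and the TuD-let-7 quotient to mock was 0.444, so the difference between these members in TuD-let-7 was nearly as large as in exact reads.

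Starts were precise for most members. Among reads starting within 2 nt of the annotated 5′ end, those starting elsewhere made up 6.23%, 5.85% and 6.03% for miR-19a-3p, mainly 1 nt upstream, and 1.40%, 1.60% and 1.49% for miR-19b-3p, mainly 1 nt downstream. For miR-92a-3p they made up 2.23% (1.75 to 2.79), 2.43% (1.63 to 3.47) and 0.629% (0.424 to 0.896), nearly all 1 nt downstream, so both decoy libraries stood above mock. A start moved by 1 nt changes the seed.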

How the data were processed

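Per the labels' protocols, liver RNA was extracted with mirVana, the 18 to 30 nt fraction was purified on a gel and 1 library per group was built. The deposited values are raw read counts of each distinct insert, with no normalisation; inserts ran from 15 to 30 nt, and for adapter removal, filters, aligner and build the labels used here give nothing. Members and lists were chosen with earlier results of these data known. The named miRNAs are the 9 members, their passengers, paralogs and same-seed miRNAs. The 5 non-target miRNAs nearest to the summed members in their pair of log2 ratios are named too.

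An insert was assigned when it started at a mature 5′ end (RefSeq, GRCm38.p6; precursors missing there came from GENCODE release 21 with their most frequent start, for arms with at least 10 reads) and matched the precursor exactly for at least 16 nt; a rest of up to 5 nt was a tail, and a matching part under 21 nt was trimmed. Inserts equal for several entries (0.236%, 0.225% and 0.182% of miRNA reads in TuD-miR-122, TuD-let-7 and mock) were left out. Level ratios carry exact conditional-binomial intervals and shares Clopper-Pearson intervals at 95%, without molecular identifiers. A level passed with at least 100 reads over both libraries and an interval beyond 1.5-fold; a share passed with at least 100 reads in each library, 5 points and intervals apart. Substitutions were counted from position 2 in reads with 1 mismatch followed by at least 4 matching bases. The count of ends that match the precursor again was added after seeing the data. On simulated data with 177 miRNAs tested, 60 of 60 3-fold changes passed against the TuD-miR-122 depth, and 59 of 60 did so for TuD-let-7, with 0 false calls. These changes were larger than any difference of a member from mock. With 1 library per group, the simulation cannot cover differences between animals. Python 3.11, numpy 2.4.6, scipy 1.17.1.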

Additional observations from a re-analysis of the deposited data

Results flagged for a closer look

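Among the members, 3 moved in opposite directions in the decoy libraries; the difference between the decoys was not tested, since each has 1 library and both share the mock library. miR-17-5p stood at 0.758 of mock in TuD-miR-122 and at 1.56 in TuD-let-7. miR-19a-3p stood at 0.836 and 1.52, and miR-19b-3p at 0.719 and 1.69, in the same order. Scaled to all reads, the TuD-let-7 values were 0.921 (0.729 to 1.16), 0.894 (0.837 to 0.955) and 0.999 (0.973 to 1.03). Scaled to all miRNA reads they were 0.983 (0.778 to 1.24), 0.954 (0.893 to 1.02) and 1.07 (1.04 to 1.09), so the opposite direction was kept in that scaling by miR-19b-3p alone.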

How the results depend on the processing

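No paired analysis was possible because each group has 1 library and the labels give no replicate numbers. Depth limits miR-18a-5p and miR-106b-5p in TuD-let-7 (55 and 83 reads), which had no call on shares. Scaled to all reads or to all miRNA reads, members past 1.5-fold were 4 and 3 in TuD-let-7 (reported as 1), the miR-17-92 sum was 0.850 and 0.907 of mock and the miR-106b-25 sum 0.557 and 0.594, and miR-19b-3p stood at 0.999 on all reads; 1 member passed in TuD-miR-122 on all reads (reported as 0). On all miRNA reads the TuD-miR-122 sums were 0.777 for miR-17-92 and 1.004 for miR-106b-25. With median-of-ratios factors, miR-17-92 stood at 0.740 of mock in TuD-miR-122 and, for TuD-let-7, at 1.38. With the other decoy library as control, 3 members passed 1.5-fold, 4 the rule on tails (TuD-let-7) and 2 that on trimming (TuD-miR-122), and TuD-miR-122 stood at 0.4995 (miR-17-92) and 0.985 (miR-106b-25) of TuD-let-7, and TuD-let-7 at 2.0019 and 1.02 of TuD-miR-122. With a 2-fold rule, 0 members passed in TuD-let-7. In tailed share, 4 members passed in TuD-miR-122, against 2 with tails of at most 2 nt and 1 with tails only of A; in TuD-let-7, 1 passed with tails only of A and 1 with rejoining ends counted as mismatches (reported as 0). In trimmed share in TuD-let-7, 1 passed with a minimum of 1000 reads and 0 with rejoining ends counted as mismatches (reported as 2). Shares over all non-target miRNAs are given above for the 2-fold rule, the direct comparison of the decoys and rejoining ends. For the other settings they are not given, so those counts do not show whether the members differ from the rest. The other 68 values of these results stayed within the spread or 1.5 times, and the causes were not tested except where the rule itself fixes them.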
